A study of Mus musculus with 10 samples.

Results

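The Wnt pathway was examined in the dorsal telencephalon, the embryonic tissue that forms the cerebral cortex, of control and Dot1l-cKO mice. The genes described here are 47 members chosen by name: 19 Wnt ligands, 10 Frizzled receptors, 2 Lrp co-receptors, 6 secreted antagonists, 3 R-spondins, beta-catenin with the 2 Axins, and 4 TCF/LEF factors. They were picked out of the 43629 gene identifiers in the count tables by their symbols. Total RNA was sequenced from 10 C57BL/6 samples taken at E14.5, 5 per group, and between 54202349 and 66556034 reads were counted per sample. Controls carried 1 floxed Dot1l allele and no Cre. Dot1l-cKO samples carried 2 floxed Dot1l alleles and 1 copy of a Cre driver active in the telencephalon. Dot1l encodes a methyltransferase of histone H3 lysine 79. Cre was present in Dot1l-cKO samples only, so the deletion of Dot1l and the carriage of the Cre allele cannot be told apart in this comparison. The labels call the samples biological replicates, and whether a sample held 1 embryo or several is not given in the sources used here. P-values set the difference between the groups against the spread between these samples.

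Wnt proteins are secreted lipid-modified ligands that bind Frizzled receptors. In the canonical branch, Frizzled acts with the co-receptor Lrp5 or Lrp6 to stop the destruction complex, which contains Axin, from degrading beta-catenin. Beta-catenin then enters the nucleus and works with TCF/LEF factors. In the developing cortex the medial edge, called the cortical hem, is a source of several Wnt ligands, whereas Wnt7a and Wnt7b are made within the cortical wall itself. R-spondins strengthen the signal, and Sfrp and Dkk proteins are secreted modulators, most of which dampen it.

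For orientation, promoter sequences of the RefSeq GRCm38.p6 assembly are shown for Wnt7a, 1 of the 4 members called differentially expressed between genotypes, and for Axin2, the negative-feedback gene widely read as a gauge of canonical signalling. Each runs 5′ to 3′ in the direction of the gene and stops before the first annotated exon, and CG dinucleotides are in capitals. The Wnt7a stretch, of 240 bases, lies at chr6:91411364-91411603 on the minus strand and holds 32 CG dinucleotides. The Axin2 stretch, of 250 bases, lies at chr11:108920099-108920348 on the plus strand and holds 24.
Wnt7a: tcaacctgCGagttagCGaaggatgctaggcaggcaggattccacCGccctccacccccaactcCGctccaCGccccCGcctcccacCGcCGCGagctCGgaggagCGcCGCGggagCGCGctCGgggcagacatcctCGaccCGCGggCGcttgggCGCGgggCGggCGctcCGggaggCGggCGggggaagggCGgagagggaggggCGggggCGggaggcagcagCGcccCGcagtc
Axin2: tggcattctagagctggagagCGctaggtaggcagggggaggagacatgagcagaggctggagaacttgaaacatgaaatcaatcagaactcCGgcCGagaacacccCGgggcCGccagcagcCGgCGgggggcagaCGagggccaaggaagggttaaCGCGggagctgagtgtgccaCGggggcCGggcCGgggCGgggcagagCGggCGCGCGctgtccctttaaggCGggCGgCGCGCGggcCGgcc

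The table held 41 windows for 32 of the 47 members. In the 250 bases before the RefSeq start, the median number of CG dinucleotides was 22.0 over the windows of members and 6 over all 32851 windows, and the median GC content was 68.0% against 52.4%. The core sequence recognised by TCF/LEF factors was searched on both strands as CTTTGAT or CTTTGAA. It occurred in 7.48% of all windows and in 3 of the 41 windows of members, those of Wnt5b, Wnt11 and Dkk1. A match is a match of letters only. The Dkk1 match, shown because Dkk1 is a known target of the pathway it inhibits, lies from 117 to 111 bases before the RefSeq start. In the GENCODE annotation used for gene positions, Dkk1 runs from 30545863 to 30549665, so there the match lies inside the gene. The Wnt5b window with a match also lies inside its gene in that annotation. The Dkk1 match is in capitals in this stretch of 27 bases at chr19:30549597-30549623 on the minus strand.
Dkk1: cctcccaaagCTTTGAAatcccatccc

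The targeted gene gave no check of the labels at the level of whole-gene counts. Dot1l had 31.4, 41.5, 36.6, 40.6 and 36.3 CPM in control replicates 1 to 5 and 42.3, 20.1, 39.6, 43.4 and 51.7 CPM in Dot1l-cKO, with overlapping groups, a log2 fold change of 0.081 ± 0.20 and an edgeR adjusted p of 0.864. Reads outside a deleted stretch are counted as well, and no values per exon were used here. Control replicate 3 and Dot1l-cKO replicate 5 stood apart by high levels of meningeal and hem genes, and control replicate 1 by thalamic genes, and values without them are given beside the members that moved with them.

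Of the 47 members, 39 passed the low-count filter and were tested. Levels are given as CPM, counts scaled to a library total of 1e+06 after TMM normalisation, and levels of different genes were compared only after division by kilobases of exon. Beta-catenin, Ctnnb1, was by far the highest of the members in controls, with 352 ± 25.2 CPM per kb (SD, n = 5). The antagonist Sfrp1 followed with 63.8 ± 13.6 CPM per kb, and Wnt7b, the leading ligand, with 48.6 ± 5.54 CPM per kb. The spreads of Sfrp1 and Wnt7b overlapped.

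Fzd1 led the receptors with 34.7 ± 3.70 CPM per kb in controls. Fzd2, with 18.4 ± 3.43 CPM per kb, and Fzd3, with 17.7 ± 1.77 CPM per kb, did not differ beyond their spread. Wnt7a was the second ligand at 12.1 ± 1.02 CPM per kb, below Wnt7b by more than the spread of either. The next ligand, Wnt5a, which signals largely without beta-catenin, stood at 2.51 ± 0.902 CPM per kb, and the hem ligands Wnt8b, Wnt3a and Wnt2b at 1.48 ± 1.30, 0.924 ± 0.848 and 0.801 ± 0.799 CPM per kb. Among the TCF/LEF factors Lef1 was highest with 2.37 ± 0.481 CPM per kb and Tcf7l1 followed with 1.08 ± 0.121 CPM per kb. Lrp6 reached 10.4 ± 0.903 CPM per kb and Lrp5 reached 4.29 ± 0.889 CPM per kb.

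**Figure D1:**
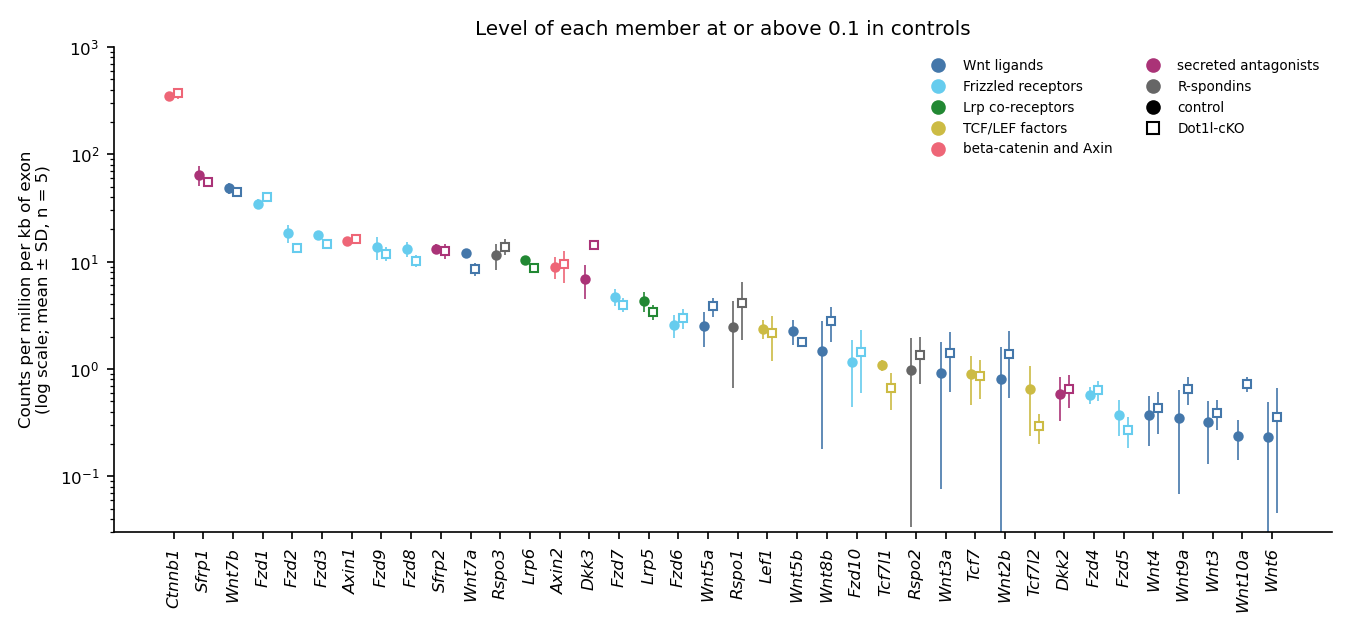
Mean level in CPM per kb of exon, on a log axis, of the 38 members with at least 0.1 CPM per kb in controls, ordered by the control mean. Filled circles are controls, open squares Dot1l-cKO and bars the SD of 5 samples, cut where they pass below the axis. Ctnnb1 stands at 352 and Wnt10a at 0.236 CPM per kb in controls.

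The 8 untested members were Wnt1, Wnt2, Wnt8a, Wnt9b, Wnt10b, Wnt11, Wnt16 and Sfrp5. Wnt1 had 0 counts in the 5 controls, and 2 counts in all in Dot1l-cKO. In a single sample 3 counts, the limit that a count of 0 allows, correspond to between 0.0451 and 0.0553 CPM by the raw library totals, and this limit covers counting error only. Wnt2 had 1, 1, 0, 4 and 3 counts in control replicates 1 to 5 and 10, 6, 8, 8 and 7 counts in Dot1l-cKO replicates 1 to 5. The groups did not overlap, but the levels were close to that limit. DESeq2 gave Wnt2 an adjusted p of 0.0279, and edgeR without the low-count filter an adjusted p of 0.0562.

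The question put to the comparison was which parts of the pathway differed between genotypes. With edgeR's quasi-likelihood test and Benjamini-Hochberg adjustment over all 17039 genes tested, 2 of the 39 members were higher in Dot1l-cKO, Wnt10a and Dkk3, at an adjusted p under 0.05. The corresponding share of all genes was 5.67%. Another 2 members, Wnt7a and Fzd2, were lower, where the share of all genes was 1.44%. The other 35 members did not pass the test. The median log2 fold change was 0.082 over the tested members and -0.0056 over all tested genes, or 0.21 and 0.00049 without control replicate 3, and 22 members lay above 0 and 17 below. The 2 calls in each direction were 5.13% of the tested members.

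**Figure D2:**
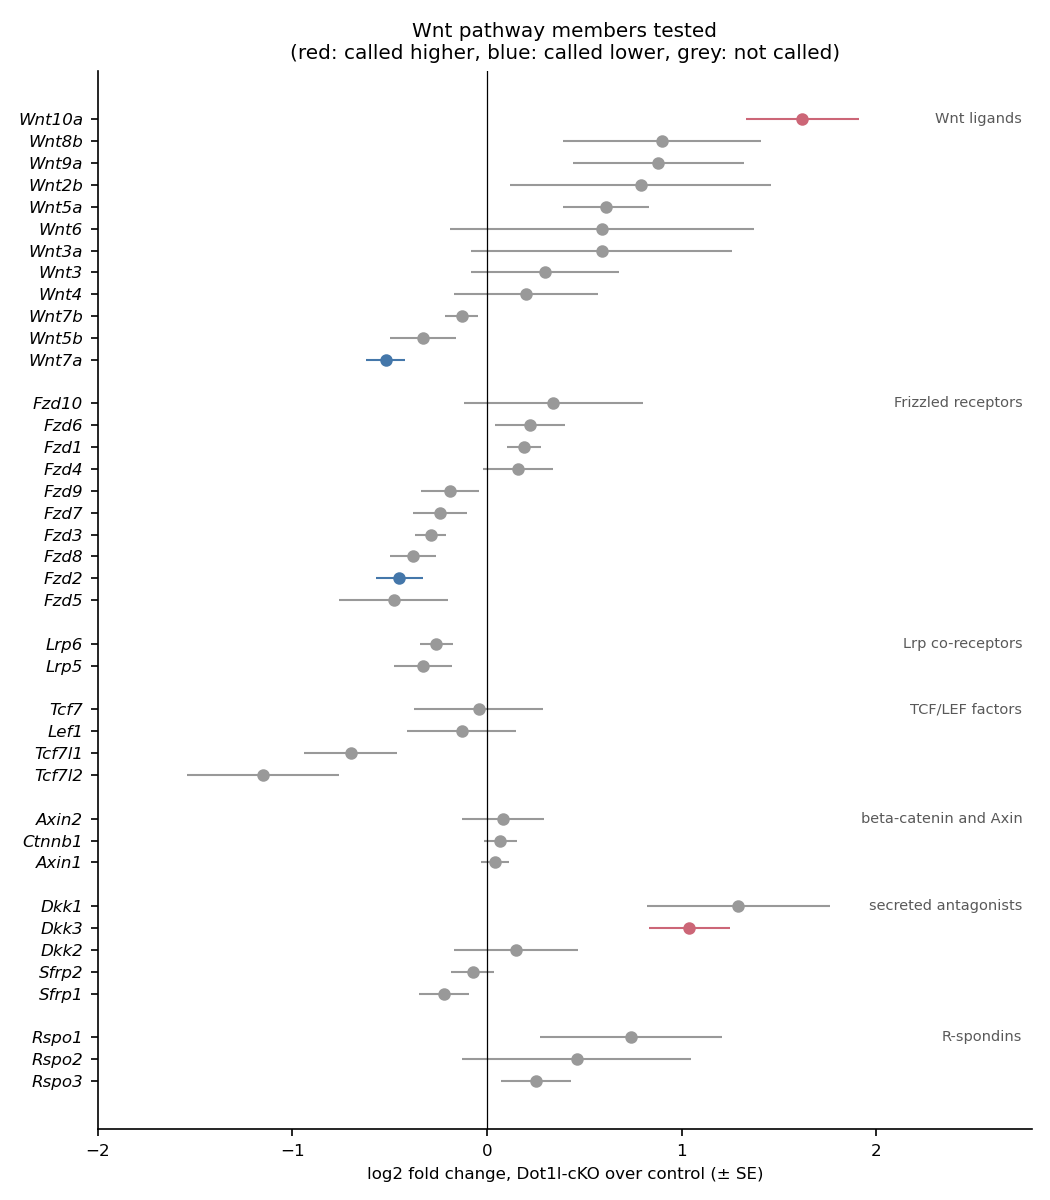
Log2 fold change of each of the 39 tested members, Dot1l-cKO over control, with its standard error, grouped by role. Wnt10a (1.62) and Dkk3 (1.04) were called higher, Wnt7a (-0.52) and Fzd2 (-0.45) lower.

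Wnt7a, at chromosome 6, positions 91363981 to 91411363, encodes a ligand made by cortical progenitors. Its levels were 37.7, 43.3, 35.3, 40.0 and 36.1 CPM in control replicates 1 to 5 and 26.6, 26.6, 31.2, 28.9 and 21.3 CPM in Dot1l-cKO replicates 1 to 5. Every Dot1l-cKO sample lay below every control, and the lowest was replicate 5. Between the groups the log2 fold change was -0.52 ± 0.10 (SE), a fall to 0.699 of the control level, with an edgeR adjusted p of 0.0112. The promoter shown above belongs to this gene, and no binding or chromatin data were analysed here. Pax6, the progenitor transcription factor among 7 dorsal telencephalon markers, was the one marker of that list called by edgeR, with a log2 fold change of -0.36 and an edgeR adjusted p of 0.0294. Emx1 and Emx2, of the same list, were at -0.29 and -0.52 on the log2 scale with edgeR adjusted p of 0.175 and 0.193. Of the 7 markers 3 lay below 0 and 4 above, among them Neurog2 at 0.13 and Eomes at 0.030. The median of the list was 0.03. Whether fewer progenitors or less Wnt7a RNA per cell gave these values cannot be told apart in bulk tissue, which holds for every gene below.

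Wnt7b, the close relative of Wnt7a and the more abundant of the pair, behaved differently in value, though the difference between both genes was not tested. Control samples 1 to 5 had 227, 204, 249, 232 and 277 CPM and Dot1l-cKO samples 203, 212, 211, 235 and 229 CPM. The groups overlapped, and the log2 fold change was -0.13 ± 0.085 with an edgeR adjusted p of 0.453. Summed over all 19 ligands, the level was 279 to 362 CPM in controls and 287 to 337 CPM in Dot1l-cKO, and Wnt7b made up most of it.

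Wnt10a, a canonical ligand at chromosome 1, positions 74791516 to 74804179, had the largest log2 fold change of the tested members. It was measured at 0.663, 0.228, 0.853, 0.670 and 0.500 CPM in control replicates 1 to 5 and at 1.43, 2.01, 1.58, 1.84 and 2.14 CPM in Dot1l-cKO replicates 1 to 5. The groups were apart in all samples. The log2 fold change was 1.62 ± 0.29, or 3.08-fold, with an edgeR adjusted p of 0.0065. These levels rested on 177 counts in all controls together and 537 in all Dot1l-cKO samples, and at 0.730 ± 0.120 CPM per kb in Dot1l-cKO Wnt10a remained far below Wnt7b.

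Dkk3 is a secreted member of the Dickkopf family whose effect on Wnt signalling is less settled than that of Dkk1. It lies at chromosome 7, positions 112116017 to 112159057. Control replicates 1 to 5 had 22.0, 13.2, 35.9, 21.5 and 23.6 CPM and Dot1l-cKO replicates 42.0, 54.2, 46.0, 45.3 and 51.9 CPM. No Dot1l-cKO sample was as low as the highest control, replicate 3. Between the groups the log2 fold change was 1.04 ± 0.21, or 2.06-fold, with an edgeR adjusted p of 0.0114. The study also singled out Dkk3, as a deep-layer neuron gene, on these samples, so its inclusion is not independent evidence. The same holds for Ccnd1, Tcf7l1 and Tcf7l2, described below, which the study named among genes with decreased expression. Beside the sequencing, the study measured Dkk3 and Ccnd1 by quantitative PCR and reported changes like those in its RNA-seq. By the same method it reported a significant decrease for part of a list of transcription factors that holds Tcf7l1 and Tcf7l2. Those PCR values were not analysed here.

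Fzd2, a receptor gene at chromosome 11, positions 102604396 to 102608058, had 59.9, 81.9, 79.9, 57.9 and 56.6 CPM across control replicates 1 to 5. The Dot1l-cKO levels were 47.4, 45.1, 55.1, 45.9 and 53.0 CPM. The groups did not overlap, but the gap between the lowest control and the highest Dot1l-cKO sample was small, and control replicates 2 and 3 stood above the other controls. The log2 fold change was -0.45 ± 0.12 with an edgeR adjusted p of 0.0477. The call was lost when any 1 sample other than control replicate 5 was left out, with adjusted p from 0.0318 to 0.112 over the 10 fits.

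**Figure D3:**
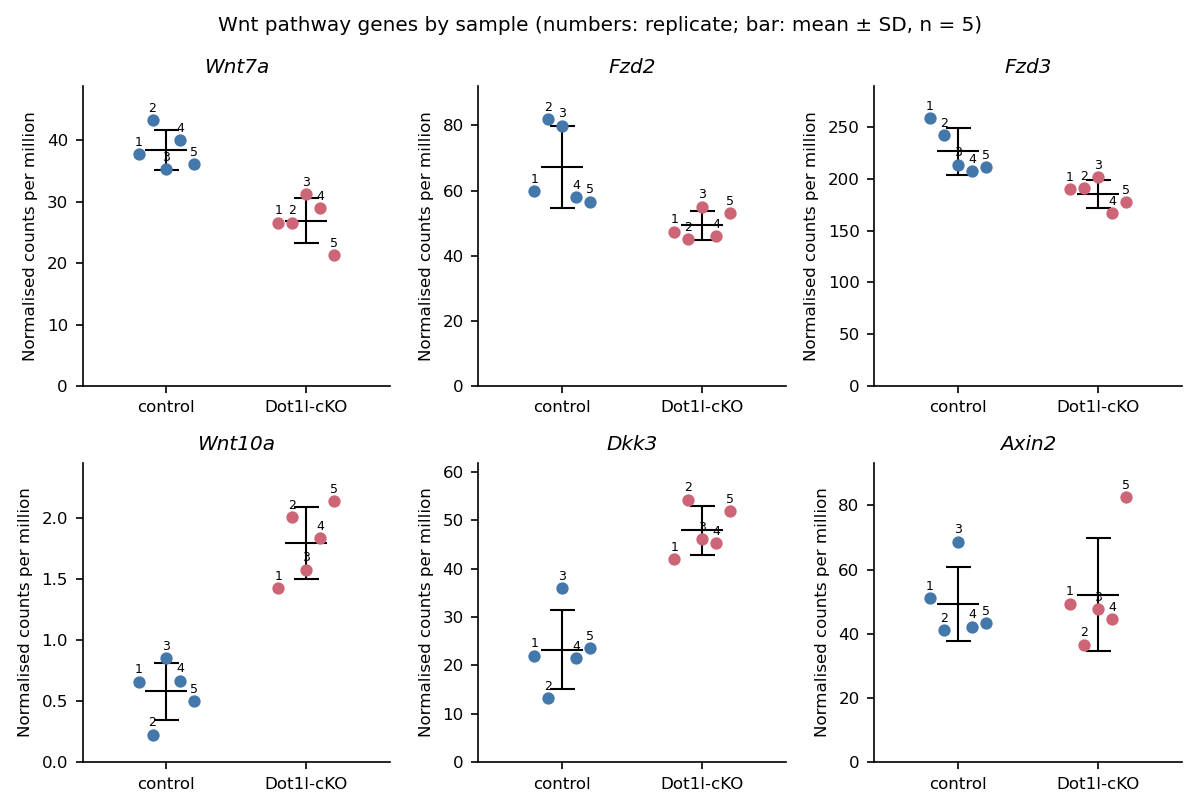
Level in CPM of Wnt7a, Fzd2, Fzd3, Wnt10a, Dkk3 and Axin2 in each sample, with replicate numbers and the mean ± SD of 5 samples per group. The groups are apart for the first 5 genes, with Fzd2 and Fzd3 the closest to overlap, and overlap for Axin2, where Dot1l-cKO replicate 5 reads 82.5 CPM.

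Control replicates 2 and 3 and Dot1l-cKO replicates 2 and 3 shared a number in the column names of the normalised tables, 57, that the labels do not explain, and mitochondrial ribosomal RNA made up 0.0471% to 0.492% of their counts against 5.79% to 10.9% in the other 6 samples. The log2 fold change within these 4 and within the other 6 samples was -0.43 and -0.58 for Wnt7a, 1.73 and 1.56 for Wnt10a, 1.05 and 1.05 for Dkk3, and -0.67 and -0.26 for Fzd2. Fzd2 was not called in either subset, with edgeR adjusted p of 0.145 and 0.146.

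The receptors as a group had 1 of 10 genes called lower, Fzd2, and none called higher. Fzd3, which acts in axon guidance and planar polarity, came close. It had 259, 242, 214, 207 and 211 CPM in control replicates 1 to 5 and 189.7, 191, 202, 167 and 178 CPM in Dot1l-cKO, without overlap. It had a log2 fold change of -0.29 ± 0.082 with an edgeR adjusted p of 0.0592. Including Fzd3, groups did not overlap for 3 tested members that were lower in Dot1l-cKO, against 2.17% of all tested genes, and for 2 that were higher, against 6.17%.

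A fit with the replicate block, which treats same-numbered samples as pairs, was run beside the main one. The sample titles do not state such a pairing. Deviations from the group means correlated at 0.131 to 0.597 between same-numbered samples, and at up to 0.446 between different-numbered ones. In this paired fit 5 members were called lower, against 2.91% of all genes, and 2 higher, against 6.51% of all genes. The added calls were Fzd3 with an edgeR adjusted p of 0.0364, Fzd8 with 0.0174 and Lrp6 with 0.0451. Wnt7a, Wnt10a, Dkk3 and Fzd2 were called in both fits.

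Fzd8, a receptor of cortical progenitors, had 70.0, 96.6, 87.6, 72.3 and 69.1 CPM in control replicates 1 to 5 and 56.6, 62.0, 73.5, 57.4 and 54.5 CPM in Dot1l-cKO. In each numbered pair the Dot1l-cKO sample was the lower one, while the groups as a whole overlapped through Dot1l-cKO replicate 3. The fitted log2 fold change was -0.38 ± 0.12 with an edgeR adjusted p of 0.0778 without the block. Fzd1, the most abundant receptor, had a log2 fold change of 0.19 ± 0.087 with an edgeR adjusted p of 0.233 and overlapping groups. The remaining receptors, Fzd4, Fzd5, Fzd6, Fzd7, Fzd9 and Fzd10, ranged from -0.48 for Fzd5 to 0.34 for Fzd10 on the log2 scale, with none called by edgeR.

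Both co-receptors had log2 fold changes below 0. Lrp6, the main co-receptor of the canonical branch, had 142, 153.98, 153, 125 and 134 CPM in control replicates 1 to 5 and 116, 113, 136, 105 and 123 CPM in Dot1l-cKO, with each Dot1l-cKO sample below the control of its number. Its log2 fold change was -0.26 ± 0.086 with an edgeR adjusted p of 0.106 without the block. Lrp5 had a log2 fold change of -0.33 ± 0.15 with an edgeR adjusted p of 0.228. Neither was called without the block, although 2 of 2 had an unadjusted p under 0.05, and DESeq2 called 1 of them, Lrp6. Of all 17039 tested genes, 1243 were lower at an unadjusted edgeR p under 0.05.

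Beta-catenin RNA did not pass the test. Ctnnb1 had 1864, 1978, 1917, 1694 and 1691 CPM in control replicates 1 to 5 and 1837, 2220.4, 1963, 1886 and 1679 CPM in Dot1l-cKO, and the log2 fold change was 0.068 ± 0.085 with an edgeR adjusted p of 0.713. Axin1, the scaffold of the destruction complex, had a log2 fold change of 0.041 ± 0.070 with an edgeR adjusted p of 0.794. Axin2 had 51.1, 41.2, 68.7, 42.3 and 43.3 CPM in control replicates 1 to 5 and 49.4, 36.7, 47.8, 44.6 and 82.5 CPM in Dot1l-cKO. Its groups overlapped, control replicate 3 and Dot1l-cKO replicate 5 were the highest of their groups, and the log2 fold change was 0.082 ± 0.21 with an edgeR adjusted p of 0.871. The sign of the Axin2 value rested on Dot1l-cKO replicate 5, without which it was -0.15. Of these 3 genes edgeR and DESeq2 called 0, and 0 had an unadjusted p under 0.05.

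Among the nuclear factors all 4 genes had log2 fold changes below 0 and none was called by edgeR. At an unadjusted p under 0.05, 2 of the 4 were lower, as were 1243 of all 17039 tested genes. Tcf7l1, mostly a repressor of target genes in the absence of signal, had 4.97, 4.10, 3.89, 4.38 and 3.78 CPM in control replicates 1 to 5 and 2.72, 1.40, 2.01, 2.93 and 3.96 CPM in Dot1l-cKO. Only Dot1l-cKO replicate 5 reached the control range. Between the groups the log2 fold change was -0.70 ± 0.24 with an edgeR adjusted p of 0.112, and 0.0343 without Dot1l-cKO replicate 5. Lef1, an activator strong in the hippocampal field beside the hem, ranged from 16.4 to 27.1 CPM in controls and from 8.60 to 31.3 CPM in Dot1l-cKO. It had a log2 fold change of -0.13 ± 0.28 with an edgeR adjusted p of 0.841, and it turned to 0.053 when Dot1l-cKO replicate 2 was left out and to 0.12 within the 6 samples outside number 57. Tcf7 was at -0.043 ± 0.33 on the log2 scale.

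Tcf7l2, the factor that marks the thalamus from early stages, had 11.8, 5.96, 4.67, 3.25 and 2.78 CPM in control replicates 1 to 5 and 3.23, 1.28, 2.94, 2.25 and 3.09 CPM in Dot1l-cKO. Control replicate 1 was the highest of the 10 samples, and the groups overlapped. The log2 fold change was -1.15 ± 0.39 with an edgeR adjusted p of 0.112, and without any 1 sample it ran from -1.33 to -0.70. In control replicate 1 the thalamic genes Gbx2, Shox2 and Olig3 read 2.03, 3.38 and 2.61 CPM. Elsewhere Gbx2 and Shox2 read at most 0.0877 and 0.105 CPM, and Olig3 at most 0.662 CPM. Without control replicate 1 the Tcf7l2 value was -0.70 with an edgeR adjusted p of 0.263. The whole list of 11 thalamic and diencephalic genes, of which 6 were tested, summed to 40.7 to 82.1 CPM in controls and 62.8 to 85.7 CPM in Dot1l-cKO. The part of thalamic tissue in the Tcf7l2 value was not tested.

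**Figure D4:**
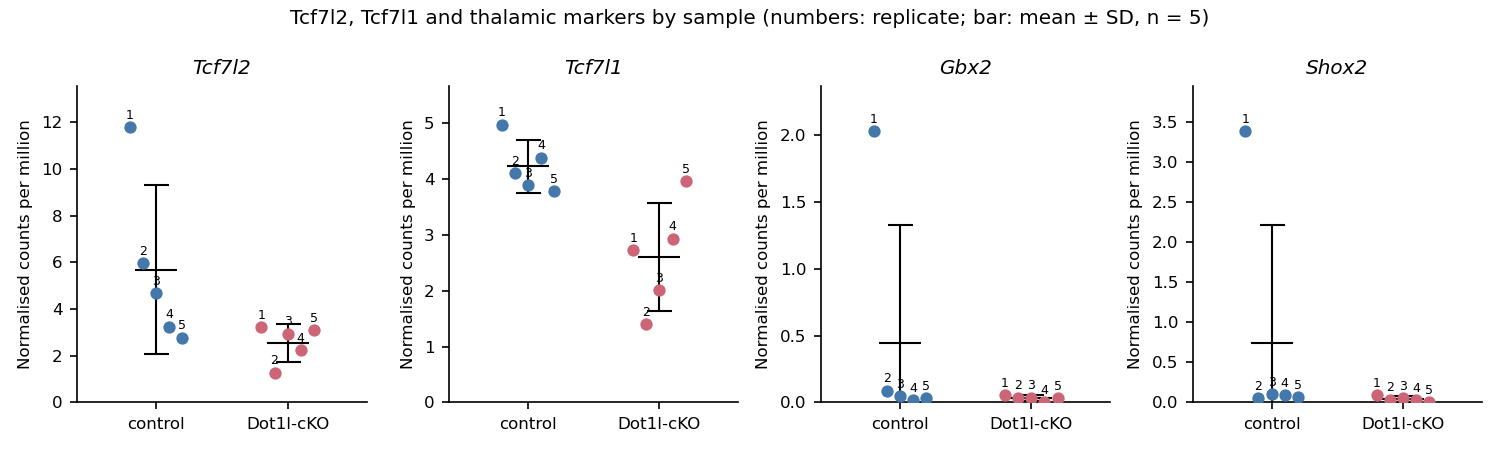
Level in CPM of Tcf7l2 and Tcf7l1 and of the thalamic markers Gbx2 and Shox2 in each sample, with replicate numbers and the mean ± SD of 5 samples per group. Control replicate 1 is the highest sample for Tcf7l2 (11.8 CPM), Gbx2 (2.03 CPM) and Shox2 (3.38 CPM).

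DESeq2 on the same counts called 7 members lower, against 3.32% of all genes with an adjusted p, and 3 higher, against 6.77%. Beside the 4 genes called by edgeR these were Fzd3, Fzd8, Lrp6, Tcf7l1 and Tcf7l2, all lower, and Wnt2, higher.

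Several ligands and R-spondins varied more among replicates than between genotypes. Over the 39 tested members the highest control exceeded the lowest by a median of 1.78-fold, against 1.418-fold over all tested genes, and by over 3-fold in 13 members, against 9.4% of all tested genes. Wnt3a had 2.98, 0.193, 6.33, 1.32 and 1.94 CPM in control replicates 1 to 5 and 2.17, 4.11, 4.36, 1.54 and 7.12 CPM in Dot1l-cKO. Wnt2b had 3.58, 0.386, 9.01, 1.65 and 2.19 CPM in controls and 4.15, 5.05, 6.74, 1.85 and 11.4 CPM in Dot1l-cKO. Both are made by the cortical hem, and both were highest in control replicate 3 and Dot1l-cKO replicate 5 of their groups and lowest in control replicate 2.

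Wnt8b, a ligand of the hem and the adjacent medial wall, had 5.65, 2.44, 12.8, 3.58 and 1.37 CPM in control replicates 1 to 5 and 9.30, 9.66, 10.4, 4.68 and 14.3 CPM in Dot1l-cKO. The R-spondin Rspo2 had 5.63, 0.877, 13.1, 2.72 and 2.71 CPM in controls and 5.32, 6.45, 7.58, 3.18 and 11.9 CPM in Dot1l-cKO. In these genes too the same 2 samples were highest. Control replicate 3 was the highest control for 24 of the 39 tested members, as it was for 26.2% of all tested genes, and Dot1l-cKO replicate 5 was the highest of its group for 24 of 39, as it was for 24.5% of all tested genes.

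None of these hem genes was called in all samples. Between the groups the log2 fold change was 0.59 ± 0.67 for Wnt3a, 0.79 ± 0.67 for Wnt2b, 0.90 ± 0.51 for Wnt8b and 0.46 ± 0.59 for Rspo2, with edgeR adjusted p of 0.673, 0.563, 0.364 and 0.723. Rspo1 was at 0.74 ± 0.47 and Rspo3, the most abundant R-spondin, at 0.25 ± 0.18, with edgeR adjusted p of 0.428 and 0.477. Of the 3 R-spondins edgeR and DESeq2 called 0, and 0 had an unadjusted p under 0.05. These values moved with single samples. Without control replicate 3 they were 1.27 for Wnt3a, 1.59 for Wnt2b, 1.57 for Wnt8b, 1.21 for Rspo2 and 1.28 for Rspo1, and Wnt8b alone of these passed, with an edgeR adjusted p of 0.0396. Without Dot1l-cKO replicate 5 they were 0.25, 0.40, 0.71, 0.16 and 0.36, and without both samples 0.92, 1.18, 1.38, 0.91 and 0.89, and none of them passed the test. Over the 12 tested ligands 9 lay above 0, with a median log2 fold change of 0.59, which was 1.06 without control replicate 3 and 0.83 without both samples.

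The same samples stood apart in markers of neighbouring tissue. The summed level of 8 meningeal and fibroblast genes was 866 CPM in control replicate 3 and 794 CPM in Dot1l-cKO replicate 5, against 25.5 to 315 CPM in the other controls and 31.3 to 286 CPM in the other Dot1l-cKO samples. The summed level of 9 hem genes that are not members was 81.9 and 91.1 CPM in those 2 samples and 16.5 to 59.0 CPM in the others. Msx1, a hem transcription factor, read 14.1 and 16.1 CPM there and at most 6.57 CPM elsewhere. Ttr, the main product of the choroid plexus, read 498 and 575 CPM in control replicates 1 and 3, 132 CPM in Dot1l-cKO replicate 5, and at most 39.2 CPM elsewhere. The 7 choroid plexus genes together summed to 3.15 to 649.9 CPM in controls and 5.14 to 159 CPM in Dot1l-cKO.

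**Figure D5:**
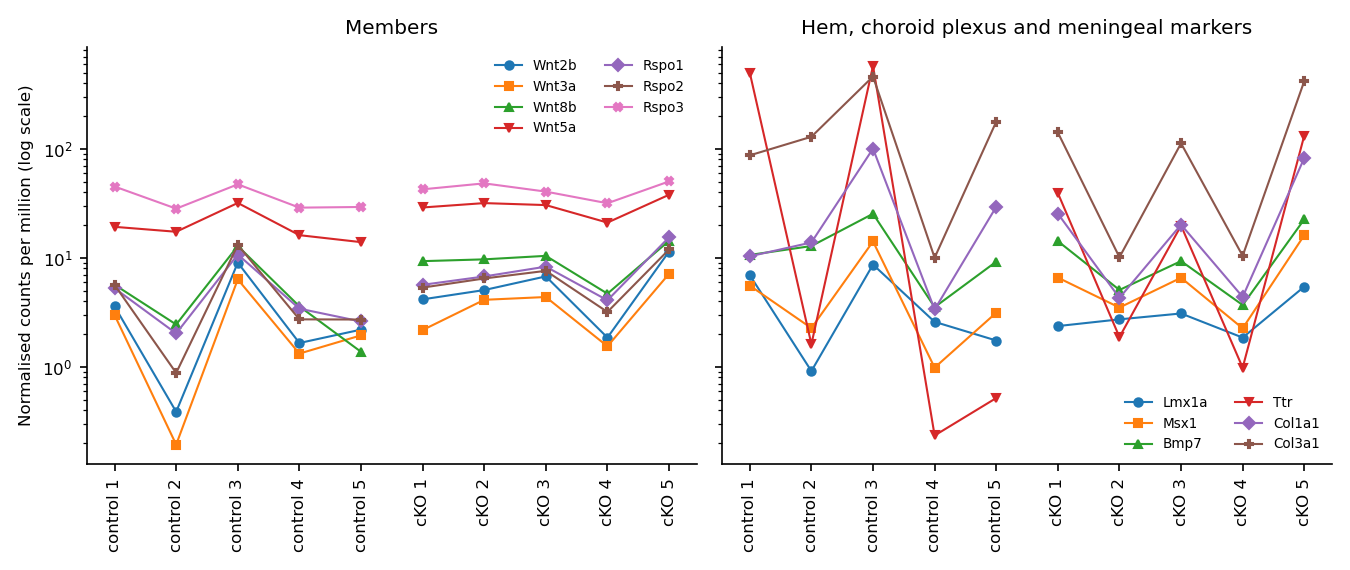
Level in CPM, on a log axis, of 7 ligands and R-spondins (left) and of hem, choroid plexus and meningeal markers (right) in each of the 10 samples, with lines joining samples of a group only to guide the eye. Members and markers are high in control replicate 3 and Dot1l-cKO replicate 5, for Wnt2b 9.01 and 11.4 CPM.

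Leaving out control replicate 3 alone raised the number of members called higher from 2 to 6, the added genes being Wnt5a, Wnt8b, Wnt9a and Dkk1, while 6.26% of all genes tested were called higher in that fit. It called 1 member lower, Wnt7a, against 1.52% of all genes. Without both control replicate 3 and Dot1l-cKO replicate 5, an alternative chosen after seeing the data, 4 members were higher, Wnt5a, Wnt9a, Wnt10a and Dkk3, and 2 were lower, Wnt7a and Tcf7l1. Of all genes tested in that fit 4.88% were called higher and 1.32% lower. Fzd2 was not called in either fit. Wnt5a had 19.2, 17.3, 31.8, 16.1 and 13.9 CPM in control replicates 1 to 5 and 28.9, 31.7, 30.4, 21.0 and 37.8 CPM in Dot1l-cKO, so that control replicate 3 was the one control above the lowest Dot1l-cKO sample. The fitted log2 fold change was 0.61 ± 0.22 with an edgeR adjusted p of 0.137 in all samples, 0.00986 without control replicate 3 and 0.0185 without both samples. The part of hem or meningeal tissue in these values was not tested.

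Of the 6 antagonists 5 were tested, and Dkk3 was the one called. Sfrp1 had 274, 365, 302, 249 and 205 CPM in control replicates 1 to 5 and 243, 238, 268, 235 and 216 CPM in Dot1l-cKO, with overlapping groups, a log2 fold change of -0.22 ± 0.13 and an edgeR adjusted p of 0.404. Sfrp2 was at -0.073 ± 0.11 on the log2 scale with an edgeR adjusted p of 0.768, and at 0.030 without control replicate 3 and Dot1l-cKO replicate 5. Dkk1, a potent blocker of the Lrp co-receptors, read only 0.105 to 0.479 CPM in controls and 0.226 to 0.967 CPM in Dot1l-cKO. Its log2 fold change was 1.29 ± 0.47 with an edgeR adjusted p of 0.137.

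Among 63 other pathway genes, 59 were tested, of which 2 were called higher and 2 lower by edgeR. Dact1, a cytoplasmic regulator that binds Dishevelled, had 109, 101, 107, 121 and 134 CPM in control replicates 1 to 5 and 169.8, 155, 182, 183 and 175 CPM in Dot1l-cKO. It rose by 0.59 ± 0.087 on the log2 scale with an edgeR adjusted p of 0.00211, and the groups did not overlap. Ccnd1, encoding the cell-cycle regulator cyclin D1 and often listed as a target of beta-catenin, had 74.8, 112, 89.8, 73.8 and 64.1 CPM in controls and 51.2, 43.0, 57.2, 34.0 and 36.1 CPM in Dot1l-cKO. It had a log2 fold change of -0.90 ± 0.18 with an edgeR adjusted p of 0.0106, and again the groups did not overlap.

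Apcdd1, a membrane inhibitor of Wnt signalling and itself a target, was higher, with 53.5 to 85.2 CPM in controls and 88.2 to 145 CPM in Dot1l-cKO. The fitted log2 fold change was 0.68 ± 0.16 with an edgeR adjusted p of 0.0238, and 0.0502 with the replicate block, and the call was lost in 4 of the 10 fits that left out a sample. Amer1, which recruits Axin and APC to the membrane, was lower, with 54.0 to 64.3 CPM in controls and 42.8 to 50.7 CPM in Dot1l-cKO. Its log2 fold change was -0.26 ± 0.071 with an edgeR adjusted p of 0.0457, and the call was lost in 9 of the 10 fits that left out a sample.

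By role, edgeR called 2 higher and 1 lower of 12 feedback and target genes, and 1 lower of 16 cytoplasmic transducers. It called 0 of 16 genes of secretion and the cell surface, where 1 was higher and 2 lower at an unadjusted p under 0.05 and DESeq2 called 1 lower. It called 0 of 14 nuclear cofactors, where 1 was higher and 4 lower at an unadjusted p under 0.05 and DESeq2 called 2 lower. It also called 0 of the 5 tested genes in a list of 9 that held R-spondin 4 and further antagonists. Of that list 3 were higher at an unadjusted p under 0.05 and DESeq2 called 1 higher. Over all 17039 tested genes, 2265 were higher and 1243 lower at an unadjusted edgeR p under 0.05. The median log2 fold change over the 59 genes was -0.047.

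The identity of the tissue was checked with marker lists. The 7 dorsal telencephalon markers summed to 1279 to 1512 CPM in controls and 1409 to 1595 CPM in Dot1l-cKO. Genes of the ganglionic eminence and striatum had log2 fold changes below 0 in 11 of 11 tested, with 1, Lhx6, called lower, and their sum was 56.8 to 319 CPM in controls and 17.9 to 103 CPM in Dot1l-cKO. Cajal-Retzius markers lay above 0 in 6 of 6, with 2, Lhx5 and Calb2, called higher, and summed to 440.3 to 652 CPM in controls and 630.2 to 1202 CPM in Dot1l-cKO. The part of these cell types in the values of Dkk3, Wnt10a or Wnt7a was not tested. Among 6 tested thalamic and diencephalic genes 1, Lhx9, was higher, and among the 8 endothelial, 8 meningeal, 7 choroid plexus and 8 tested hem genes edgeR called 0. At an unadjusted p under 0.05 these 4 lists held 1, 0, 0 and 1 genes, all higher, and DESeq2 called the same numbers.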

How the data were processed

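Stranded, rRNA-depleted total RNA libraries were sequenced as paired ends. Per the labels and the study's methods, the authors trimmed reads with Trim Galore 0.2.8, mapped them to mm10 with TopHat2 2.0.9 and counted them per Ensembl gene with HTSeq 0.6.0 in reverse-stranded mode. The deposited raw tables hold whole-number counts. The deposited normalised tables hold a signal, the counts divided by the size factor the authors obtained with DESeq2 1.6.1. Of 43629 identifiers, 42548 were matched to symbols of GENCODE M21 (GRCm38), and the rest held 0.268% of counts. No member shared exon bases with another gene on its strand.

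Counts were tested with edgeR 4.0.16 in R 4.3.3 (filterByExpr at its defaults, TMM, quasi-likelihood test, no covariate, Benjamini-Hochberg adjustment over all tested genes, threshold 0.05). Standard errors were the fold change divided by the square root of F, and are approximate. The fits were tested on simulated counts. DESeq2 1.42.0 and limma 3.58.1, on log2 of normalised counts plus 1, were alternatives, beside other normalisation, filters, blocks, batches and samples left out. The replicate block treated replicate numbers as pairs, which the sample titles do not state. Deviations from the group means correlated between same-numbered samples in each of 5 pairs (0.131 to 0.597). For different numbers the mean was -0.072, but some values were as high, with 0.446 for control replicate 3 and Dot1l-cKO replicate 5. Control replicate 2 correlated at 0.35 with Dot1l-cKO replicate 2 and with Dot1l-cKO replicate 3. The unexplained column number is shared by same-numbered samples too. Counting precision covers counting error only, as reads carried no molecular identifiers. By a chi-square comparison over genes, no pair of replicates agreed within sampling noise.

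The members and all gene lists were chosen with earlier results of these data known. Members named with full values were those called by edgeR, the 2 highest per kb of exon in each role, and Axin2. Other pathway genes were named where called, with Dot1l. One gene is not reported here. Fzd3, Fzd8, Tcf7l2, Wnt2, Wnt2b, Wnt3a, Wnt8b, Wnt9a, Rspo2, Wnt5a and Dkk1, the ranges over the remaining members, and the markers named by their values were added after values were seen.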

Additional observations from a re-analysis of the deposited data

Results flagged for a closer look

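In each group of 5, the gap between the most extreme sample and its neighbour was set against the whole range on the log2 scale, for the tested members and 5 further named genes. Of 88 groups, 3 passed the critical value of 0.71, and chance flags about 1 in 20. Tcf7 in control replicate 3 read 4.34 CPM against 1.69 to 2.00 CPM in the other controls, a gap of 0.825 of the range. Amer1 in Dot1l-cKO replicate 2 read 42.8 CPM against 48.9 to 50.7 CPM, a gap of 0.786 of the range. Dot1l in Dot1l-cKO replicate 2 read 20.1 CPM against 39.6 to 51.7 CPM in the other Dot1l-cKO samples, a gap of 0.717 of the range.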

How the results depend on the processing

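Wnt10a, Dkk3 and Wnt7a kept their direction in all alternatives and their call in each fit that left out 1 sample. Leaving out 1 sample at a time gave 2 to 6 members higher and 1 to 2 lower. The lower count lost Fzd2 in 9 fits. The higher count reached 6 without control replicate 3, where 6.26% of all genes were called higher and 1.52% lower. Members called lower numbered 5 with the replicate block, against 2.91% of all genes, and 7 with DESeq2, against 3.32%. With the column number as a block 5 were lower. At an adjusted p under 0.01, 1 member was higher and 0 lower. The shares of all genes are not given for the column-number block and the 0.01 threshold. They are also not given for the fits that left out 1 sample, except control replicate 3. The range over those fits therefore cannot be set against genes in general. Within the 4 samples of column number 57, a fit with fewer samples, edgeR called 0 higher and 0 lower. At an unadjusted p under 0.05 that fit had 1 member higher and 9 lower. The share of all genes at that threshold is not given for it, so these numbers cannot be set against genes in general. Without control replicate 3 and Dot1l-cKO replicate 5, 4 were higher. The replicate block, the paired fit, changed no other call among the named genes than Fzd3, Fzd8, Lrp6 and Apcdd1. Directions that turned were those of values near 0. Axin2 was at -0.0053 without both samples, at -0.36 within number 57, and at -0.15 to 0.23 with 1 sample left out. Lef1 was at 0.12 within the other numbers and at -0.40 to 0.053 with 1 sample left out. Sfrp2 was at 0.030 without both samples. Dot1l was at -0.055 without both samples, at -0.0058 with limma, at -0.37 within number 57, and at -0.046 to 0.25 with 1 sample left out. The cause of these turns was not tested. The untested ligands had few counts per sample, and whether depth or absence of their RNA gave this was not tested.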
